A study of Mus musculus with 9 samples.

Results

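The Myb locus was described by the TGIF1 and MEIS1 binding sites that lie in and around it in mouse leukaemic cells. Its members were all peaks of 8 deposited lists that overlapped the window chr10:20750000-21050000 (mm9). The window spans the Myb gene, at about 20.84 to 20.88 Mb and transcribed toward lower coordinates. It also spans the ground upstream of the gene, at higher coordinates. It held 100 of the 182249 peaks of the 8 lists, and these merged into 31 regions when peaks sharing at least 1 bp were joined. Positions of genes other than the Myb interval were not used on mm9, so whether the window reaches into a neighbouring gene was not determined. In RefSeq's gene order (GRCm38.p6), the protein-coding neighbours of Myb are Ahi1 on the lower side and Hbs1l on the higher side. Between Myb and Hbs1l lie 5 genes: 4 lncRNA genes (Gm40608, Gm33619, Gm33671 and Gm33728) and Gm2467.

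Chromatin immunoprecipitation with sequencing had been carried out in c-kit+ bone marrow cells of C57BL/6 mice that were transformed with the fusion oncogene MLL-AF9 and then transduced with pMIG-TGIF1-ER, in which TGIF1 is joined to an estrogen receptor part and answers to 4-hydroxytamoxifen (4-OHT). All 4 groups carried both constructs: TGIF1 antibody after EtOH, TGIF1 antibody after 4-OHT for 20 h, MEIS1 antibody after EtOH and MEIS1 antibody after 4-OHT for 20 h, with 2 libraries in each. Cells without TGIF1-ER given 4-OHT were not part of the series, so an effect of 4-OHT and an effect of TGIF1-ER cannot be told apart, and the labels do not say whether the TGIF antibody (H-172) separates the fusion from the cells' own TGIF1. The 9th sample, an IgG precipitation, was not analysed here. Whether replicate libraries stem from different cultures is not in the labels, so p-values measure only the spread between these libraries, which may be technical. The lists hold positions only. They ranged from 592 to 48829 peaks, the depth behind them is unknown, and no list allows the labelled cell type to be checked by its markers.

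Myb encodes a DNA-binding transcription factor that keeps blood progenitors proliferating and undifferentiated and whose level falls as they mature. MLL-AF9 leukaemia cells depend on it. In blood cells its transcription is governed by a core promoter rich in CpG and by enhancers in the interval toward Hbs1l, which contact the promoter by looping. MEIS1 is a TALE homeodomain protein and HOX cofactor of leukaemia cells, and TGIF1 is a TALE homeodomain repressor. The DNA letters that MEIS1 and TGIF1 proteins recognise share the core TGTCA, read on one strand or the other.

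Peaks were called in 7 of the 8 lists where the approximate Myb interval begins, so the bases before the RefSeq start of Myb are shown. How far these bases lie from the peaks was not determined. The sequence is the 250 bases before the RefSeq start of Myb (GRCm38.p6, chr10:21160985-21161234, minus strand), read 5′ to 3′ toward the gene, with TTGGCG, letters found in many E2F binding sites, in capitals:
Myb promoter: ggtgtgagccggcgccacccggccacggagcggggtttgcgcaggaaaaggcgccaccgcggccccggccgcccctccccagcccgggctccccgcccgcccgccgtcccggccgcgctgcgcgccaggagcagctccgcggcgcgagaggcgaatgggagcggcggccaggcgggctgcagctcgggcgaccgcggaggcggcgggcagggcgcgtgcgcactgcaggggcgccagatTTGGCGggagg

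The stretch was 81.2% G or C and held 40 CpG, against medians of 52.4% and 6 over the 32851 promoter stretches of the same length in the table, of which 1.31% had as many CpG. Both strands were searched for TGACAG (a MEIS and TGIF site), for its core TGTCA, which every match of the former contains on the other strand, and for TGATTGA (a HOX and PBX site). No match of these letters was found in it. A match was present in 15.9% of all promoter stretches for TGACAG, in 40.0% for TGTCA and in 2.34% for TGATTGA. A further search for TTGGCG, added after the sequence had been seen, matched at 1 place, 11 bases before the start, and in 5.87% of all promoter stretches. The position of these bases on mm9 was not used here, so no summit is placed on them.

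TGIF1 had few peaks at the locus under EtOH, and both 4-OHT lists held more. In the window the TGIF1 EtOH lists held 2 peaks (replicate 1) and 1 peak (replicate 2), and the TGIF1 4-OHT lists held 6 and 17. Both induced libraries lay above both EtOH libraries. The group means were 1.5 ± 0.707 under EtOH and 11.5 ± 7.78 after 4-OHT (SD, n = 2 each), which differ by a factor of 7.67 (log2 ratio 2.94, two-sided exact permutation p = 0.33, the smallest that 2 against 2 libraries can give). Both EtOH sites lay in the Myb interval or at its start, and both also carried peaks in both 4-OHT libraries. These are the 2 of 31 merged regions with TGIF1 under EtOH, against 4.58% of all merged regions.

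The ratio of TGIF1 peak number at Myb was below that of the lists as a whole, which was 11.6. Per 1000 peaks of its list, the window held 0.724 and 1.69 TGIF1 peaks under EtOH and 0.494 and 0.631 after 4-OHT. Both induced libraries lay below both EtOH libraries on this scale, with means of 1.21 ± 0.683 and 0.563 ± 0.0969 (SD, n = 2 each; log2 ratio -1.10, two-sided exact permutation p = 0.33). The EtOH values rest on 3 peaks in all. With lists of equal length (the 592 longest peaks of each TGIF1 list) the log2 ratio turned to 1.0, and with the longer 50% of each list it turned to 0.38. At equal length the value per 1000 list peaks is the peak number times a constant, so its ratio is that of the number. Both settings rest on still fewer EtOH peaks. With equal length there were 0 and 1 (replicates 1 and 2), against 1 and 1 after 4-OHT. With the longer 50% there were 1 and 0, against 3 and 6 after 4-OHT.

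MEIS1 was spread over the whole window, with no order of its peak number by treatment. The MEIS1 EtOH lists held 18 and 21 peaks in the window and the MEIS1 4-OHT lists held 12 and 23, so that both the lowest and the highest value were those of 4-OHT. The means were 19.5 ± 2.12 and 17.5 ± 7.78 (SD, n = 2 each; log2 ratio -0.16, two-sided exact permutation p = 1.0). Per 1000 list peaks the MEIS1 values were 0.686 and 0.482 under EtOH and 0.567 and 0.471 after 4-OHT, a difference within the spread between replicates (log2 ratio -0.17, two-sided exact permutation p = 0.667). Without MEIS1 4-OHT replicate 1 the number ratio turned to 0.24 on the log2 scale, and without MEIS1 EtOH replicate 1 the ratio per 1000 list peaks turned to 0.11.

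**Figure D1:**
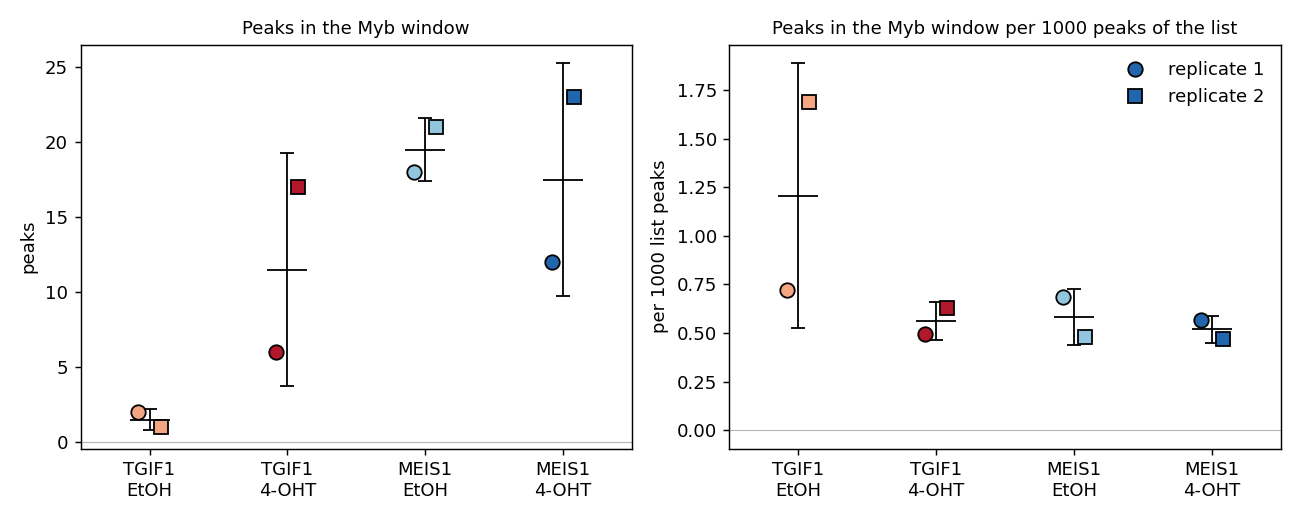
Peaks in the Myb window by group, as a number per library (left) and per 1000 peaks of the library's list (right); circles are replicate 1, squares replicate 2, bars the mean and whiskers the SD (n = 2). TGIF1 4-OHT lies above TGIF1 EtOH in number (6 and 17 against 2 and 1) and below it per 1000 list peaks.

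The window held more peaks than most windows of its length. Consecutive windows of 300 kb were laid along the chromosomes, and 6103 of them held a peak in at least 1 list. As many MEIS1 peaks as at Myb were found in 1.08% of these windows for EtOH replicate 1, 5.18% for EtOH replicate 2, 3.11% for 4-OHT replicate 1 and 4.59% for 4-OHT replicate 2. As many TGIF1 peaks were found in 10.1% and 8.18% for EtOH replicates 1 and 2, and in 9.86% and 3.42% for 4-OHT replicates 1 and 2. The median window held 3 to 6 MEIS1 peaks, against 12 to 23 at Myb.

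**Figure D2:**
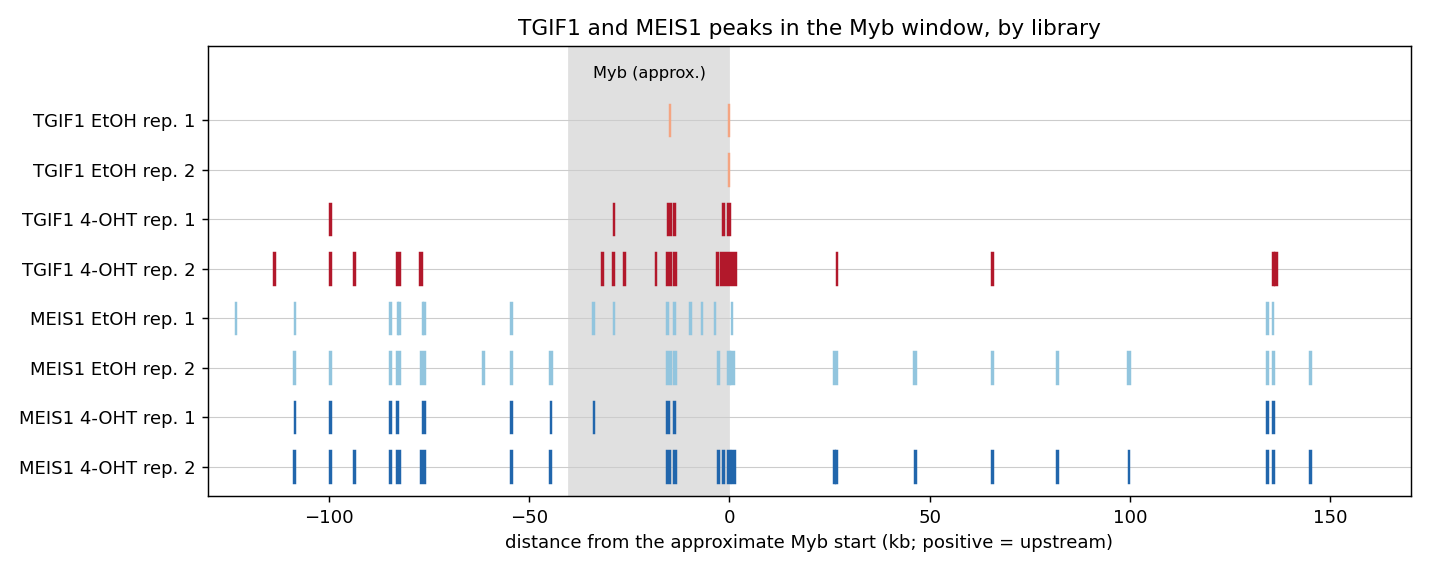
Map of the peaks of each library (rows) along the Myb window; the x axis is the distance from the 20.88 Mb mark in kb, with upstream positive, and the grey band is the approximate Myb gene. Peaks stand on the gene and on both sides of it, and the ground from 26.4 to 99.6 kb upstream carries peaks in no replicate 1 library.

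Read by region, the locus resembled the genome in its shares. Of the 31 merged regions, 22 had a peak in at least 2 lists (72.8% of all 60709 merged regions did), 7 in at least 5 (18.2% of all) and 0 in all 8 (0.343% of all). MEIS1 was called in at least 1 library at 27 regions (89.9% of all) and in all 4 libraries at 9, or 29.0% of the 31 (26.1% of all). TGIF1 was called in at least 1 4-OHT library at 16 regions (43.8% of all) and in both at 5, or 16.1% (18.2% of all). Of the 9 regions with MEIS1 in all 4 libraries, 5 had TGIF1 in at least 1 4-OHT library (54.2% over the genome) and 2 had it in both (32.4% over the genome). All 5 regions with TGIF1 in both 4-OHT libraries had MEIS1 in at least 1 library (88.8% over the genome), and 2 of them in all 4 (46.4%). These counts are small and near the background, and are not a result about Myb.

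By treatment, the counts of regions were also near those of the genome and set Myb apart in nothing. At 14 regions TGIF1 had a peak in at least 1 4-OHT library and in no EtOH library (39.7% of all merged regions did), and at 3 it had one in both 4-OHT libraries and in no EtOH library (14.3% of all). A MEIS1 peak in both EtOH libraries and in no 4-OHT library was found at 0 of the 31 regions (1.08% of all), and the reverse also at 0 (1.05% of all). The 12 regions with both proteins (34.1% of all) made up 75.0% of the 16 regions with TGIF1 after 4-OHT (77.8% over the genome). The other 4 had no MEIS1 peak (9.74% of all merged regions), and each of them was called only in TGIF1 4-OHT replicate 2.

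**Figure D3:**
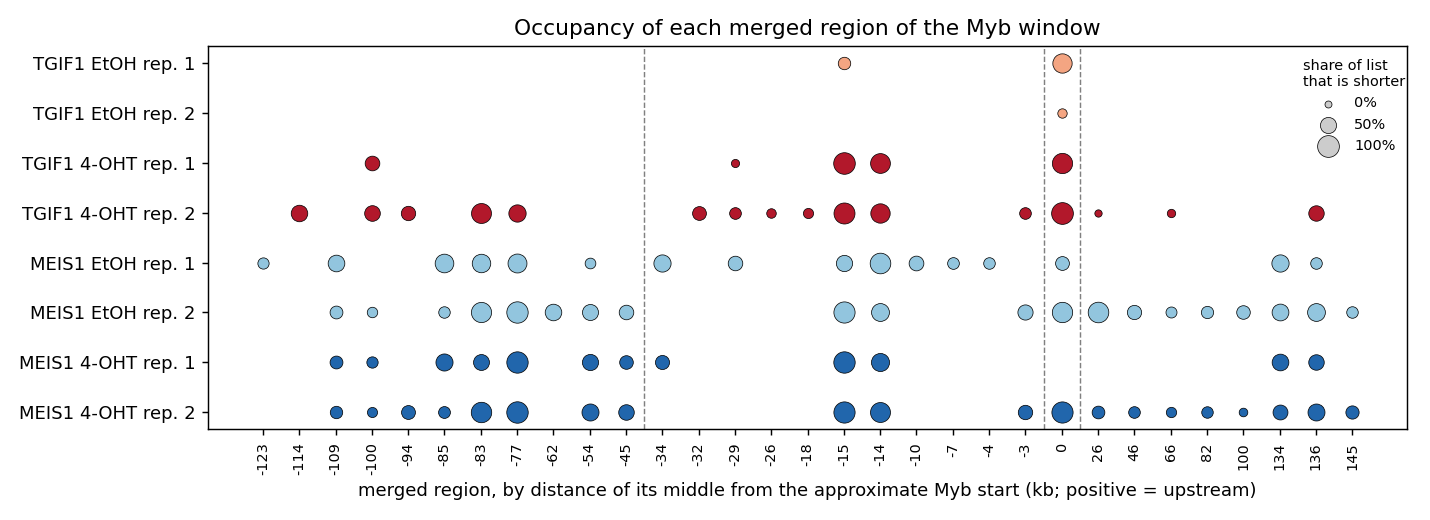
Occupancy of the 31 merged regions (columns, by distance of their middle from the 20.88 Mb mark in kb, upstream positive) in the 8 libraries (rows); a dot is a peak, its size the share of the list's peaks that are shorter, and dashed lines part the lower side, the Myb interval, the region at its start and the upstream side. The start region and the region at -15 kb have dots in 7 of the 8 rows, and upstream columns from 26 to 100 kb have dots only in replicate 2 rows.

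The region at the Myb start, chr10:20877639-20881711 (mm9), had peaks in 7 lists and held 3 groups of summits. It contains the 20.88 Mb mark, and TGIF1 was called there in all 4 of its libraries. It was the only region of the 31 with TGIF1 in both EtOH libraries, as were 0.766% of all merged regions. TGIF1 EtOH peaks were 361 bp (replicate 1) and 238 bp (replicate 2) long, and the 4-OHT peaks nearest to their summits were 642 bp (replicate 1) and 4073 bp (replicate 2). The last is longer than 99.974% of the peaks of its list and joins what are separate peaks in the other lists. Length is not height, and the lists give no height.

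The central group at the start held 6 summits within 75 bp, from 20879717 to 20879792. It joined all 4 TGIF1 libraries with replicate 2 of MEIS1 under EtOH (20879731) and under 4-OHT (20879785). Under EtOH the TGIF1 summits were at 20879717 and 20879742, and after 4-OHT at 20879784 and 20879792. A second group, 609 bp further upstream, held summits of MEIS1: its 3 summits lay at 20880401 (4-OHT replicate 2), 20880405 (EtOH replicate 1) and 20880407 (EtOH replicate 2), within 6 bp. The 4073 bp peak of TGIF1 4-OHT replicate 2 covers these too, and as the list gives a single summit per peak, whether TGIF1 had a further summit there cannot be read from it. The third group, 1333 bp inside from the central one, held TGIF1 4-OHT replicate 1 (20878384) and MEIS1 4-OHT replicate 2 (20878363).

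In both replicate 2 libraries MEIS1 thus had a central summit close to those of TGIF1 and another further upstream. In MEIS1 4-OHT replicate 1, the shortest MEIS1 list (21173 peaks), no peak was called anywhere in this region, while MEIS1 4-OHT replicate 2 had 3 peaks of 505, 800 and 1146 bp. The absence is therefore not shared by the 4-OHT libraries.

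Inside the Myb interval, a pair of neighbouring regions carried both proteins in all induced and all MEIS1 libraries, and their summits were arranged differently. These were the 2 regions of the window with TGIF1 in both 4-OHT libraries and MEIS1 in all 4 (8.44% of all merged regions). The region chr10:20864132-20865490, at -15.2 kb from the 20.88 Mb mark, had peaks in 7 lists, and 353 bp beyond it the region chr10:20865844-20866696 had peaks in 6.

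In the region at -15.2 kb the summits of TGIF1 and MEIS1 stood apart. The 4 MEIS1 summits were at 20864427 (EtOH replicate 1), 20864420 (EtOH replicate 2), 20864430 (4-OHT replicate 1) and 20864429 (4-OHT replicate 2), a spread of 10 bp. The 3 TGIF1 summits were at 20865183 (EtOH replicate 1), 20865186 (4-OHT replicate 1) and 20865183 (4-OHT replicate 2), a spread of 3 bp. The summits of the proteins were therefore 753 to 766 bp apart, far more than the spread within each protein. Both TGIF1 4-OHT peaks covered the MEIS1 summits, and both MEIS1 replicate 2 peaks covered the TGIF1 summits. As the lists give a single summit per peak, whether either protein had a further summit there cannot be read from them. Over all overlapping peaks of a TGIF1 4-OHT and a MEIS1 library, summits were over 500 bp apart in 7.64% of pairs (2.44% to 10.2% by library pair), and the median distance was 28 to 31 bp.

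The TGIF1 peaks of this region were longer after 4-OHT, and so was the median peak of the whole lists. That median was 283 and 336.5 bp under EtOH and 438 and 567 bp after 4-OHT (replicates 1 and 2). In their lists, 25.1% of peaks were shorter than the region's EtOH peak, and 98.4% and 92.7% were shorter than its 4-OHT peaks. Under EtOH the TGIF1 peak was 235 bp (replicate 1, with none in replicate 2), and after 4-OHT the peaks were 1131 and 1267 bp and reached over the MEIS1 summits. MEIS1 peaks were 365 bp (EtOH replicate 1), 1232 bp (EtOH replicate 2), 765 bp (4-OHT replicate 1) and 1161 bp (4-OHT replicate 2). The MEIS1 summits kept their position, within 10 bp, in all 4 libraries, whatever the length of the peak.

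In the second region of the pair, at -13.7 kb, the summits coincided. The TGIF1 summits were at 20866378 (4-OHT replicate 1) and 20866379 (4-OHT replicate 2). The MEIS1 summits were at 20866394 and 20866382 under EtOH and at 20866382 and 20866389 after 4-OHT (replicates 1 and 2). All 6 lay within 16 bp, and no TGIF1 peak was called there under EtOH. TGIF1 peaks were 591 and 828 bp long, and MEIS1 peaks were 533 and 703 bp under EtOH and 491 and 816 bp after 4-OHT.

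**Figure D4:**
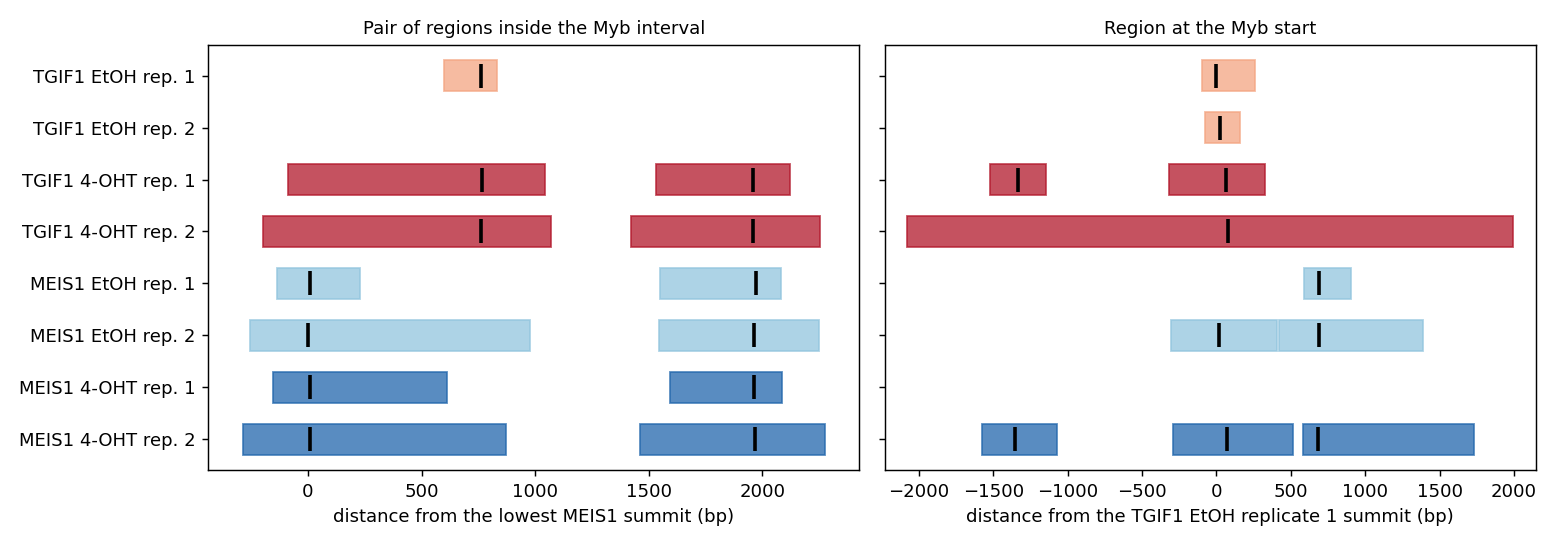
Peaks (bars) and summits (black ticks) of each library at the pair of regions inside the Myb interval (left, bp from the lowest MEIS1 summit) and at the Myb start (right, bp from the TGIF1 EtOH replicate 1 summit). On the left TGIF1 and MEIS1 summits stand 753 to 766 bp apart in one region and within 16 bp in its neighbour; on the right 6 summits of both proteins fall within 75 bp.

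A further site of both induced TGIF1 libraries inside the Myb interval had MEIS1 in a single library. At chr10:20850812-20851264 the TGIF1 4-OHT peaks were 283 and 453 bp long with summits 4 bp apart (20851102 and 20851106). MEIS1 had a peak of 333 bp in EtOH replicate 1 only, with its summit at 20851056, 46 to 50 bp away. These TGIF1 peaks were short for their lists: 4.36% and 20.9% of the list's peaks were shorter.

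The Myb interval also held MEIS1 peaks that did not recur. At chr10:20870054-20870389, chr10:20872902-20873186 and chr10:20876047-20876329, picked after their values were seen, only MEIS1 EtOH replicate 1 had a peak. A peak in 1 list only was found at 9 of the 31 regions and at 27.2% of all merged regions. Of the 18 peaks of MEIS1 EtOH replicate 1 in the window, 12 (66.7%) overlapped a peak of EtOH replicate 2, against 90.8% over its whole list. The region chr10:20845829-20846308, singled out after its values were seen, had MEIS1 peaks in replicate 1 of both treatments (387 and 401 bp, summits 23 bp apart) and in neither replicate 2, although the replicate 2 lists are longer. That pattern was found at 0.255% of all merged regions and at 1 of the 31.

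On the lower side of Myb, toward Ahi1, 11 regions were called. MEIS1 was present in all 4 libraries at 5 of them (26.1% of all merged regions). TGIF1 was called at 5 in at least 1 4-OHT library (43.8% of all) and at 1 in both (18.2% of all), counts too small to set the lower side apart. The region with TGIF1 in both, chr10:20779976-20780566, held TGIF1 peaks of 409 and 549 bp and MEIS1 peaks of 502 bp (EtOH replicate 2), 352 bp (4-OHT replicate 1) and 437 bp (4-OHT replicate 2). Its summits scattered over 126 bp, with no order by protein: the TGIF1 summits were the lowest and the highest of the 5.

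A pair of lower-side regions with MEIS1 in all 4 libraries also had TGIF1 in 4-OHT replicate 2. In chr10:20796832-20797794 the TGIF1 summit (20797071) lay 3 bp from the nearest MEIS1 summit (20797068, EtOH replicate 1), and MEIS1 EtOH replicate 1 had a further peak whose summit was 468 bp beyond that. In chr10:20802590-20804022 the TGIF1 summit (20802903) lay 442 to 733 bp from the MEIS1 summits. The MEIS1 peaks there were among the longest of their lists in 3 libraries, with 1346 bp (EtOH replicate 2), 756 bp (4-OHT replicate 1) and 1310 bp (4-OHT replicate 2), longer than 96.1% to 97.0% of the list. In EtOH replicate 1 the site was split into peaks of 238 and 440 bp.

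On the upstream side, where enhancers of Myb are known, most calls depended on the replicate 2 libraries. Of 8 regions there, 6 had MEIS1 in replicate 2 of both treatments and in neither replicate 1, a pattern found at 7 of all 31 regions and at 21.6% of all merged regions. The replicate 2 lists are the longer ones under both treatments (43564 against 26254 peaks under EtOH, 48829 against 21173 after 4-OHT), and the part of list length or depth in this pattern was not tested. In these 6 regions 5 of the 6 MEIS1 EtOH replicate 2 peaks and all 7 MEIS1 4-OHT replicate 2 peaks were shorter than the median of their list. The same share was not determined for the other merged regions of this pattern, so these counts do not set the upstream side apart.

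The upstream regions were named after their values were seen, because enhancers of Myb are known on this side. They lay 26.4, 46.2, 65.5, 81.8, 99.6, 134.2, 136.0 and 144.9 kb above the 20.88 Mb mark. The nearest, chr10:20905866-20906928, had a MEIS1 peak of 1021 bp in EtOH replicate 2, and in 4-OHT replicate 2 this was a pair of peaks of 439 and 492 bp. TGIF1 4-OHT replicate 2 had its shortest peak of the window there, at 312 bp. At chr10:20945270-20945784 the summits of TGIF1 4-OHT replicate 2 and MEIS1 EtOH replicate 2 fell on the same base (20945493), and that of MEIS1 4-OHT replicate 2 lay 23 bp away.

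The other upstream regions of the replicate 2 pattern were MEIS1 only. At chr10:20925951-20926534 the MEIS1 peaks were 584 bp (EtOH) and 470 bp (4-OHT), at chr10:20961558-20962100 they were 543 and 467 bp, and at chr10:20979346-20979914 they were 569 and 396 bp. At chr10:21024677-21025220 they were 527 and 503 bp. The summits of the treatments lay 4 to 33 bp apart in these 4 regions, so the same places were called under EtOH and 4-OHT. TGIF1 was called in no library in them.

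The upstream binding shared by all 4 MEIS1 libraries lay at the far end of the window, in a pair of regions. The position of Hbs1l on mm9 was not used. Whether this pair lies at Hbs1l or at an enhancer of Myb was therefore not determined. The region chr10:21013863-21014517 had MEIS1 in all 4 libraries, with peaks of 388 and 655 bp under EtOH and 455 and 539 bp after 4-OHT, summits within 26 bp, and no TGIF1. Next to it, chr10:21015343-21016566 had MEIS1 in all 4, with peaks of 283 and 699 bp under EtOH and 428 and 598 bp after 4-OHT and summits within 28 bp. TGIF1 was called there in 4-OHT replicate 2 alone, with a peak whose summit (21015683) was 4 bp from the nearest MEIS1 summit and a second, 635 bp further, that overlapped the MEIS1 EtOH and 4-OHT replicate 2 peaks at their edge.

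On the upstream side TGIF1 was called at 3 of 8 regions, near the 43.8% of all merged regions with TGIF1 in at least 1 4-OHT library, and each of these calls came from replicate 2. All 6 peaks of TGIF1 4-OHT replicate 1 in the window overlapped replicate 2 (100%, against 96.5% over its list), while 5 of the 17 peaks of replicate 2 overlapped replicate 1 (29.4%, against 41.4%). None of the 6 lay on the upstream side, and the list of replicate 1 held 12141 peaks against 26932.

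MEIS1 peak lengths moved with the lists and not in a common direction. At overlapping peaks of replicate 1, the 4-OHT peak was longer than the EtOH peak in 11 of 12 pairs (median 449 against 380.5 bp), and in replicate 2 it was longer in 3 of 22 (533.5 against 642.5 bp). The median peak of the whole list moved likewise, from 362 to 442 bp in replicate 1 and from 633 to 571 bp in replicate 2.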

How the data were processed

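Peak lists of 8 libraries were used, 1 list per library. Per the submitters' processing notes, reads were aligned with Bowtie 0.12.7 on build mm9. The MEIS1 4-OHT replicate 2 list was made with MACS 1.4.2, per the file headers. For the remaining lists a caller, and for all of them a threshold and a control, are not given in these sources. The deposited lists give start, end, length and summit offset, with no score, fold or read number, so depth is unknown. Groups came from the sample titles. The members and lists were chosen with earlier results of these data known.

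Summit positions were taken as start plus offset minus 1. Peaks were merged over all lists at an overlap of 1 bp. Named regions had peaks in at least 5 lists or in both TGIF1 4-OHT libraries, and others are marked as chosen later. A region's side was set by its middle against 20.84 and 20.88 Mb, and a peak's by its centre. Group means were compared with a two-sided exact permutation test, threshold 0.05. No test was made over regions. An mm9 annotation and genome were not used, so planned gene lists and motif counts at summits were not run, and motifs were searched in the RefSeq promoter table only. Alternatives were a reciprocal overlap of 50%, centres within 200 bp, the longer 50% of each list, lists of equal length (592 TGIF1, 21173 MEIS1), parts of the window, centre membership, a replicate block and each library left out.

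Python 3.11.15, numpy 2.4.6, pandas 2.3.3 and bedtools 2.31.1 were used. The merging was checked on simulated peaks against bedtools. The number of regions and the sorted numbers of libraries per region were equal in 20 of 20 sets. Coordinates of the regions were not compared.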

Additional observations from a re-analysis of the deposited data

How the results depend on the processing

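The TGIF1 peak number ratio kept its direction in all 8 alternatives that gave a value (log2 1.0 to 3.52, and 2.0 to 3.52 with single libraries left out). With equal length the TGIF1 EtOH lists held 0 and 1 peaks and the 4-OHT lists 1 and 1. The induced libraries then no longer both lay above both EtOH libraries. With the longer 50% the TGIF1 lists held 1 and 0 peaks under EtOH and 3 and 6 after 4-OHT. With 2 libraries a group no test could pass the threshold, and staying on that side of it says nothing about stability. The TGIF1 ratio per 1000 list peaks turned to 0.38 with the longer 50% of each list and to 1.0 with lists of equal length, and was -1.59 to -0.36 with single libraries left out. Its equal-length value is the same result as that of the number, not a separate check. The MEIS1 number ratio was -0.70 to 0.24 with single libraries left out, turning to 0.24 without MEIS1 4-OHT replicate 1, and the MEIS1 ratio per 1000 list peaks was -0.40 to 0.11, turning to 0.11 without MEIS1 EtOH replicate 1. On the upstream part alone the MEIS1 number ratio was 0. Parts of the window outside the gene gave no TGIF1 ratio because no EtOH peak lay there. Regions with TGIF1 in both 4-OHT libraries numbered 5, but 3 with the longer 50% of each list, 0 with lists of equal length and 5 to 16 with single libraries left out, where 1 library then stands for its group (16 without TGIF1 4-OHT replicate 1). Regions with MEIS1 in all 4 libraries numbered 9, but 3 with the longer 50%, 5 with equal lengths and 9 to 11 with libraries left out. Regions with both numbered 2, but 1 with a reciprocal overlap of 50%, 0 with equal lengths and 2 to 5 with libraries left out (5 without TGIF1 4-OHT replicate 1). Fewer peaks or fewer libraries are built into these settings. TGIF1 EtOH libraries do not enter these 3 counts.

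The groups have the same replicate numbers, and no label says that a number marks a shared culture or day. With a replicate block the mean log2 ratios were 2.84 (TGIF1 number), -0.23 (MEIS1 number), -0.99 (TGIF1 per 1000) and -0.15 (MEIS1 per 1000). No direction of these means changed. The MEIS1 number ratio was -0.58 in replicate 1 and 0.13 in replicate 2, so the replicates differed in direction. Each of the other ratios had the same sign in both replicates. The difference between replicates in presence of a peak correlated between treatments across the 31 regions (r = 0.135 for TGIF1, 0.629 for MEIS1), which lists of unlike length can give without pairing.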
